A study of Mus musculus with 24 samples.

Results

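The genes Bcl6, Mybl1, Nuggc, S1pr2, Mef2b, Rgs13 and Fas, which mark or run the germinal centre programme of B cells, were followed through sorted B cells of tumour-bearing mice. They were chosen by name, as 7 of the 56791 genes in the deposited count table, and Bcl6 was also followed in regulatory T cells (Tregs). Bulk RNA sequencing had been done on B cells and Tregs sorted from the lymphocytes infiltrating tumours of B16-F0, a mouse melanoma cell line, or from the draining lymph nodes of the same kind of mice. The 24 libraries form 8 groups of 3, and the 12 B cell libraries are the main subject here. All mice carried Foxp3-Cre, written Foxp3-Cre-YFP in the title of the series, in which the Foxp3 gene drives Cre recombinase. The mice labelled WT carried Foxp3-Cre alone, and those labelled KO carried Foxp3-Cre and Appl2f/f, loxP-flanked alleles of Appl2, which codes for an endosomal adaptor protein. Foxp3 marks Tregs, so Cre is expected in Tregs and not in the B cells compared here. The labels give no age or sex, and do not state that replicate libraries stand for different animals. The p-values therefore measure the spread between these libraries, which may be technical.

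Germinal centres are the sites in lymphoid follicles where activated B cells divide, mutate their antibody genes and are selected by follicular helper T cells. BCL6, a transcriptional repressor, is needed for B cells to enter and stay in this state, and it is also used by follicular helper T cells and by follicular Tregs, which restrain the reaction. Dividing germinal centre B cells gather in a dark zone, and cells under selection gather in a light zone. Lymphoid aggregates with germinal centres are known from lymph nodes during immune responses and from some tumours.

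RefSeq promoter windows from 250 bases before to 50 after the start site, on build GRCm38.p6, were matched by symbol for 5 of the 7 members, Bcl6, Fas, Mef2b, Rgs13 and S1pr2. Shown here are both windows of Bcl6, the regulator at the head of the programme, and those of Fas and Rgs13, since all 3 genes were higher in tumour B cells labelled KO. Each reads 5′ to 3′ on the strand of its gene, and capitals mark the motif matches described after the sequences.
Bcl6, chr16:23981234-23981533, minus strand: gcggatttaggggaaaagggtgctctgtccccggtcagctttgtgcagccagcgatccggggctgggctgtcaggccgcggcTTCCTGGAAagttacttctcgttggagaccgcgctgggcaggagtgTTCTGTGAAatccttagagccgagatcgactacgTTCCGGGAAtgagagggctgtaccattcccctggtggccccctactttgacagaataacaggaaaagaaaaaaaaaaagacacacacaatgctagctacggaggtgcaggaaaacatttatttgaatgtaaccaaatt
Bcl6, chr16:23988803-23989102, minus strand: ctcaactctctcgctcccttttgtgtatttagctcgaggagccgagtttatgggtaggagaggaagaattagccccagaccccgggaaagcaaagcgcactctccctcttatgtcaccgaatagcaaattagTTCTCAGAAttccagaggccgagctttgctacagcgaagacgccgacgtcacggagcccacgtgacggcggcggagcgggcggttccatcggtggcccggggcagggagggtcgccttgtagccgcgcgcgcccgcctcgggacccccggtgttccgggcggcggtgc
Fas, chr19:34290409-34290708, plus strand: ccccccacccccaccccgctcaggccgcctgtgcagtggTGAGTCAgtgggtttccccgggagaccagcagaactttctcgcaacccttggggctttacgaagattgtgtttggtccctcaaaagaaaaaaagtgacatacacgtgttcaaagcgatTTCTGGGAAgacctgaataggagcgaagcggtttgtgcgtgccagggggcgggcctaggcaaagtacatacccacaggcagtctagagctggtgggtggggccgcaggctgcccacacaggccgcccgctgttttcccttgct
Rgs13, chr1:144177323-144177622, minus strand: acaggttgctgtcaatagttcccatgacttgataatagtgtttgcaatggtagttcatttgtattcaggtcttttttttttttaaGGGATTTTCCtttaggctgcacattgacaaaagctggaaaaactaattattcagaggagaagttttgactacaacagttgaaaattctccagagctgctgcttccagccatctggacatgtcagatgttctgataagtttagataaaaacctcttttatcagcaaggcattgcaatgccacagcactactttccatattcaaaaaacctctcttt

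The letters TTCNNNGAA, a pattern that STAT factors recognise and that resembles the sites of BCL6, occurred 3 times in the first Bcl6 window, at -168, -122 and -88 from the start site, and once in the other, at -118. The Fas window held one match at -93, along with one match to TGANTCA, the AP-1 pattern, at -211. In the Rgs13 window the NF-kB consensus was matched at -165. Of 32851 promoter windows searched on both strands, 8.3% held TTCNNNGAA, 7.81% the AP-1 letters and 8.46% the NF-kB consensus. Among the windows not printed, Mef2b held the octamer ATGCAAAT at -85 and S1pr2 the cyclic AMP response letters TGACGTCA at -181, which 1.74% and 1.79% of windows held. None of the windows held TTTCCCGC, an E2F pattern found in 1.07% of windows, or the MEF2 consensus, found in 3.19%. These are matches of letters and were not tested as sites.

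The B cell libraries held 6245822 to 12727115 counts and the Treg libraries 10020149 to 16239055. Levels are CPM, counts relative to the library total, scaled by TMM over all 24 libraries, and the log2 fold changes and two-sided quasi-likelihood tests come from edgeR, with Benjamini-Hochberg adjusted p-values (adjusted p) over all genes tested in a comparison. A gene is called at an adjusted p under 0.05. Appl2 was lower in the B cells labelled KO, at 15.5 ± 3.05 against 44.8 ± 6.13 CPM in tumour and 11.3 ± 0.425 against 24.1 ± 2.65 CPM in lymph node, and in tumour Tregs, at 24.6 ± 3.16 against 53.7 ± 4.25 CPM. In lymph node Tregs it was not called, at 26.2 ± 3.02 in the libraries labelled KO against 22.2 ± 3.803 CPM (SD, n = 3). The change there was 0.23 log2 (adjusted p = 0.159), and the ranges overlapped. The table counts whole genes, so a deleted exon alone need not lower the count. In B cells, where Cre is not expected, the change was called in tumour, at -1.53 log2 (adjusted p = 5.83e-06). It was also called in lymph node, at -1.085 (adjusted p = 2.24e-07), and the cause was not tested. The summed level of 10 B cell markers was 4625 to 4978 CPM in lymph node and 3469 to 3963 CPM in tumour B cells, against 104 to 319 CPM in Tregs, and none of them was at 0. In tumour B cells, replicate 1 labelled KO and replicate 2 labelled WT lay furthest from their own replicates, with a root mean square difference in log2(CPM + 2) over 10060 genes of 0.329 and 0.311, where other libraries had 0.168 to 0.303.

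Across the B cell groups, all 7 members were lower in tumour than in lymph node in the libraries labelled WT, and in the libraries labelled KO 4 of them were. In tumour B cells, Bcl6, Mybl1, Nuggc, Rgs13 and Fas were higher under the KO label, with log2 fold changes from 0.91 to 3.96. In lymph node B cells only Nuggc and Rgs13 of the 7 passed the test between the labels, by 0.61 and 0.90. In bulk samples, fewer germinal centre B cells and less of their RNA per cell cannot be told apart. All 7 members passed the filter on low counts in every B cell comparison. In 2 of them Rgs13 passed only through the group where it was high. In the WT tissue comparison S1pr2 passed only through lymph node. The tumour WT libraries enter both the comparison of tissues and that of the labels, so the low values there count in both.

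The counts stood as follows against all genes tested. In tumour B cells, 5 of 7 members rose and 0 fell under the KO label, where 21.3% of all genes were called higher and 18.8% lower. Rgs13 passed the filter on low counts there only through tumour KO, so its call was partly fixed by the filter. In lymph node B cells, 2 rose and 0 fell, against 11.0% and 10.1%. Between tumour and lymph node, 0 rose and 7 fell in B cells labelled WT, against 15.7% higher and 14.3% lower. Rgs13 and S1pr2 passed the filter there only through lymph node, so their calls among the 7 were partly fixed by it. In B cells labelled KO, 0 rose and 4 fell, against 17.5% and 13.4%. The interaction, which asks whether the KO against WT change differed between tumour and lymph node, was called higher in tumour for 5 members and lower for 0, against 12.4% and 8.55% of all genes.

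**Figure D1:**
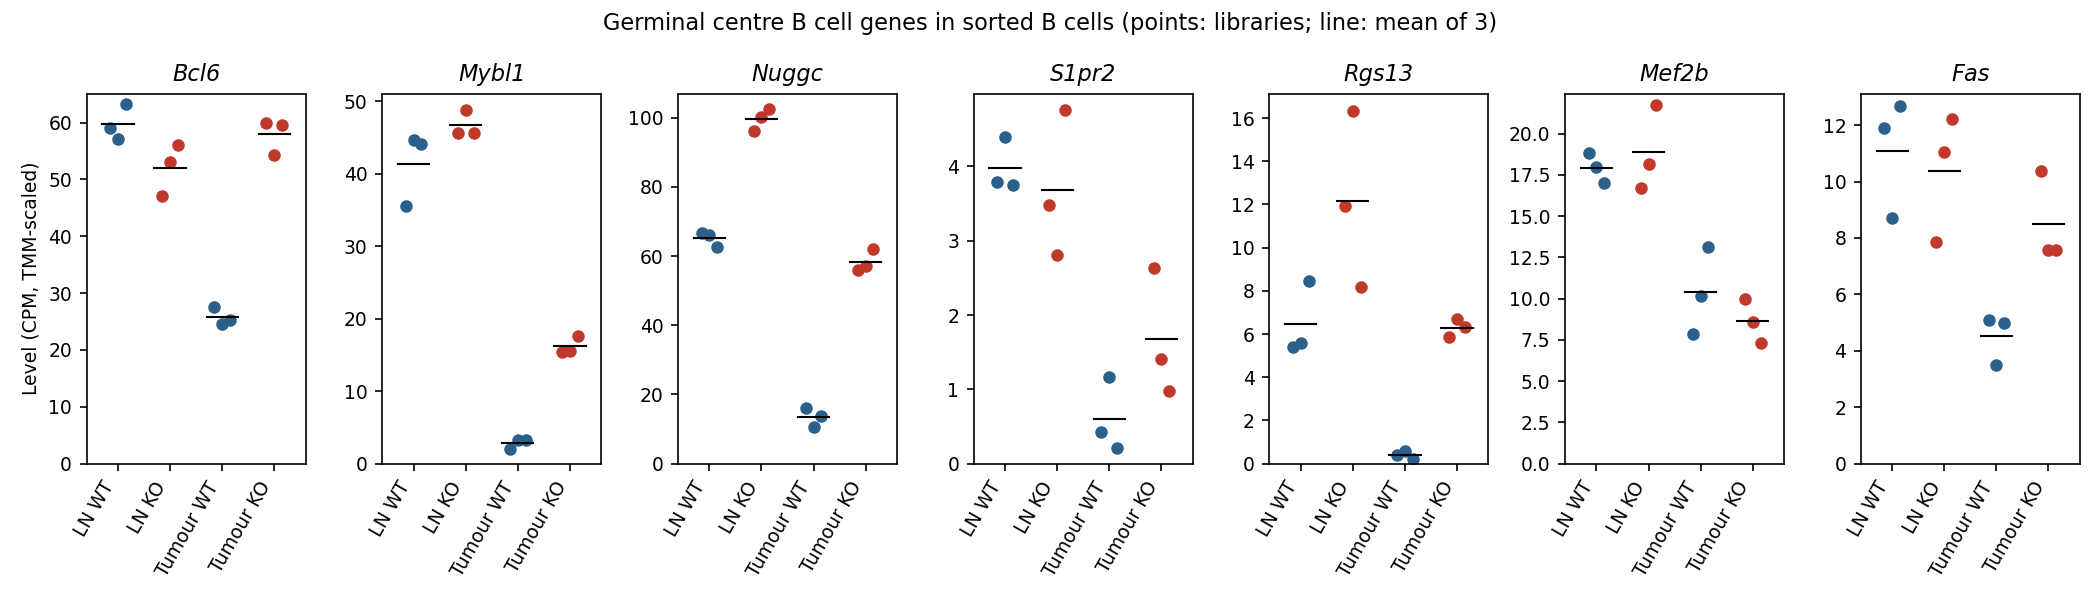
Level (CPM, TMM-scaled, each vertical axis from 0) of the 7 genes in the 12 B cell libraries; points are libraries, lines are means of 3, and blue and red are the labels WT and KO. Bcl6 lies between 24.6 and 27.6 CPM in tumour WT libraries and between 47.1 and 63.2 CPM in the other 9, while Mybl1 is high in lymph node and low in both tumour groups.

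Bcl6 (chr16:23783802-23807602 on GRCm39, minus strand), the repressor that defines the programme, lost its difference between tissues under the KO label. Its level was 59.1, 57.2 and 63.2 CPM in lymph node WT libraries and 27.6, 24.6 and 25.3 CPM in tumour WT libraries. It was 47.1, 53.1 and 56.1 CPM in lymph node KO libraries and 59.9, 54.4 and 59.6 CPM in tumour KO libraries. The tumour WT libraries were thus low and apart from all others, and the ranges of lymph node WT and tumour KO overlapped. The tumour to lymph node change was -1.14 ± 0.0948 log2 (SE, adjusted p = 2.73e-08) in WT and 0.20 ± 0.0940 (adjusted p = 0.138) in KO. Between the labels, Bcl6 rose by 1.17 ± 0.107 log2 in tumour (adjusted p = 1.25e-06), and in lymph node its change of -0.20 ± 0.0810 did not pass (adjusted p = 0.083). The interaction was 1.35 ± 0.131 log2 (adjusted p = 1.46e-07). When B cells were scaled to the summed B cell markers, a setting chosen after seeing the data, the median of all genes moved to 0.25 log2 in the KO tissue comparison and Bcl6 to 0.47 (adjusted p = 0.00701).

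Mef2b (chr8:70592361-70620138, plus strand), a transcription factor known in human germinal centre B cells to activate BCL6, did not follow it. Its level was 18.8, 18.0 and 17.0 CPM in lymph node WT libraries and 7.83, 10.2 and 13.2 CPM in tumour WT libraries. In KO libraries it was 16.7, 18.2 and 21.7 CPM in lymph node and 9.99, 8.61 and 7.32 CPM in tumour. The 6 tumour libraries lay below the 6 lymph node libraries, and the labels overlapped within each tissue. Mef2b fell in tumour under both labels, by 0.72 ± 0.181 log2 in WT (adjusted p = 0.00505) and by 1.08 ± 0.173 in KO (adjusted p = 0.000385), and its change between the labels in tumour was -0.26 ± 0.238 (adjusted p = 0.41). Under the marker scaling, where the median of all genes moved to 0.32, the WT value was -0.41 (adjusted p = 0.0786). Mef2b shares 4.42% of its exon bases with Borcs8 on the same strand, and Mef2b itself read 11.1 to 15.7 CPM in the 4 Treg group means, so its counts are not particular to B cells here. Borcs8 read 18.9 ± 4.81 CPM in tumour WT and 10.6 ± 1.79 CPM in tumour KO B cells (SD, n = 3).

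Mybl1 (chr1:9737640-9770434, minus strand), the A-MYB factor of dividing germinal centre B cells, fell the furthest of the 3 transcription factors in tumour WT. It read 35.5, 44.6 and 44.0 CPM in lymph node WT libraries against 2.01, 3.20 and 3.29 CPM in tumour WT libraries. It read 45.6, 48.7 and 45.7 CPM in lymph node KO libraries and 15.4, 15.6 and 17.6 CPM in tumour KO libraries. Tumour KO lay between the lymph node and tumour WT groups without touching either. The change from lymph node to tumour was -3.81 ± 0.183 log2 in WT (adjusted p = 1.23e-11) and -1.49 ± 0.109 in KO (adjusted p = 4.02e-07). Between labels it rose by 2.52 ± 0.246 log2 in tumour (adjusted p = 2.28e-06), while in lymph node it was 0.17 ± 0.0920 (adjusted p = 0.204). The interaction was 2.34 ± 0.222 (adjusted p = 1.1e-07).

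Nuggc (chr14:65835995-65885980, plus strand), a nuclear GTPase known from germinal centre B cells, had the highest level per length of the 7 in lymph node KO, at 35.1 ± 1.14 CPM per kb of exon against 13.4 ± 1.83 for Mef2b and 7.78 ± 0.678 for Bcl6 there (SD, n = 3). It read 66.8, 66.0 and 62.6 CPM in lymph node WT libraries and 96.0, 100.3 and 102.4 CPM in lymph node KO libraries. It read 15.98, 10.6 and 13.7 CPM in tumour WT libraries and 55.9, 57.2 and 62.0 CPM in tumour KO libraries. No 2 of the 4 groups overlapped, and the libraries labelled KO were higher in both tissues. The label change was 2.11 ± 0.140 log2 in tumour (adjusted p = 4.85e-08) and 0.61 ± 0.0663 in lymph node (adjusted p = 3.29e-08), with an interaction of 1.48 ± 0.140 (adjusted p = 1.09e-07). From lymph node to tumour it fell by 2.19 ± 0.118 log2 in WT (adjusted p = 6e-11) and by 0.73 ± 0.0780 in KO (adjusted p = 1.3e-05).

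Rgs13 (chr1:144014392-144053110, minus strand), which dampens signalling from chemokine receptors by speeding GTP hydrolysis on G proteins, was near its floor in tumour WT. The 3 tumour WT libraries held 4, 4 and 2 counts, or 0.42, 0.58 and 0.21 CPM, against 5.84, 6.68 and 6.35 CPM in tumour KO. Lymph node WT libraries read 5.41, 5.57 and 8.47 CPM, and lymph node KO libraries read 11.9, 16.3 and 8.20 CPM. In tumour the labels were far apart, and in lymph node they overlapped at one library each. The label change was 3.96 ± 0.446 log2 in tumour (adjusted p = 8.73e-06) and 0.90 ± 0.216 in lymph node (adjusted p = 0.00269), with an interaction of 3.06 ± 0.514 (adjusted p = 0.000164). From lymph node to tumour it fell by 3.95 ± 0.429 log2 in WT (adjusted p = 9.51e-07) and by 0.91 ± 0.246 in KO (adjusted p = 0.0129). The KO value was not called without lymph node KO replicate 2, at -0.65 (adjusted p = 0.0833), or under the marker scaling, at -0.64 (adjusted p = 0.0679).

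S1pr2 (chr9:20873657-20888077, minus strand), the receptor that holds germinal centre B cells in place through the G protein subunit encoded by Gna13, was the lowest of the 7 per length. It read 3.78, 4.39 and 3.74 CPM in lymph node WT libraries and 3.48, 2.81 and 4.75 CPM in lymph node KO libraries. It read 0.42, 1.16 and 0.21 CPM in tumour WT libraries, from 2 to 8 counts each, and 2.64, 1.41 and 0.98 CPM in tumour KO libraries. The tumour groups lay below both lymph node groups and overlapped each other. From lymph node to tumour S1pr2 fell by 2.74 ± 0.494 log2 in WT (adjusted p = 0.000284) and read -1.05 ± 0.400 in KO (adjusted p = 0.0626). Between the labels its tumour change of 1.57 ± 0.676 log2 was not called (adjusted p = 0.0801), nor was the interaction of 1.70 ± 0.667 (adjusted p = 0.0758), and its lymph node change was -0.11 ± 0.270 (adjusted p = 0.834). Single libraries decide these calls. Without tumour WT replicate 2 the tumour change was 2.38 (adjusted p = 0.0322) and the interaction 2.51 (adjusted p = 0.0153), and without tumour KO replicate 3 the interaction was 1.97 (adjusted p = 0.0451). Without tumour KO replicate 1 the tumour change was 1.06 (adjusted p = 0.37) and the KO tissue change -1.57 (adjusted p = 0.00944).

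Fas (chr19:34268066-34305172, plus strand), the death receptor used to identify mouse germinal centre B cells by flow cytometry, had the smallest change of the 5 members called in the tumour comparison of the labels. It read 11.9, 8.70 and 12.7 CPM in lymph node WT libraries and 7.87, 11.1 and 12.2 CPM in lymph node KO libraries. It read 5.08, 3.49 and 4.99 CPM in tumour WT libraries and 10.4, 7.58 and 7.57 CPM in tumour KO libraries. Tumour WT was apart from and below the other groups, which overlapped. Fas fell by 1.21 ± 0.227 log2 from lymph node to tumour in WT (adjusted p = 0.000422), and read -0.24 ± 0.219 in KO (adjusted p = 0.454). The tumour label change was 0.91 ± 0.263 log2 (adjusted p = 0.0136) and the interaction 0.99 ± 0.321 (adjusted p = 0.0314), with -0.09 ± 0.180 in lymph node (adjusted p = 0.777). Without tumour KO replicate 1 the tumour change was 0.75 (adjusted p = 0.0612), and without that library and WT replicate 2 it was 0.61 (adjusted p = 0.141). The interaction was not called without any one of lymph node KO replicate 1, lymph node WT replicates 1 and 3, tumour KO replicate 1 and tumour WT replicate 2, at 0.82 to 0.94 (adjusted p = 0.0695 to 0.0882), nor under the marker scaling, at 0.95 (adjusted p = 0.0635).

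**Figure D2:**
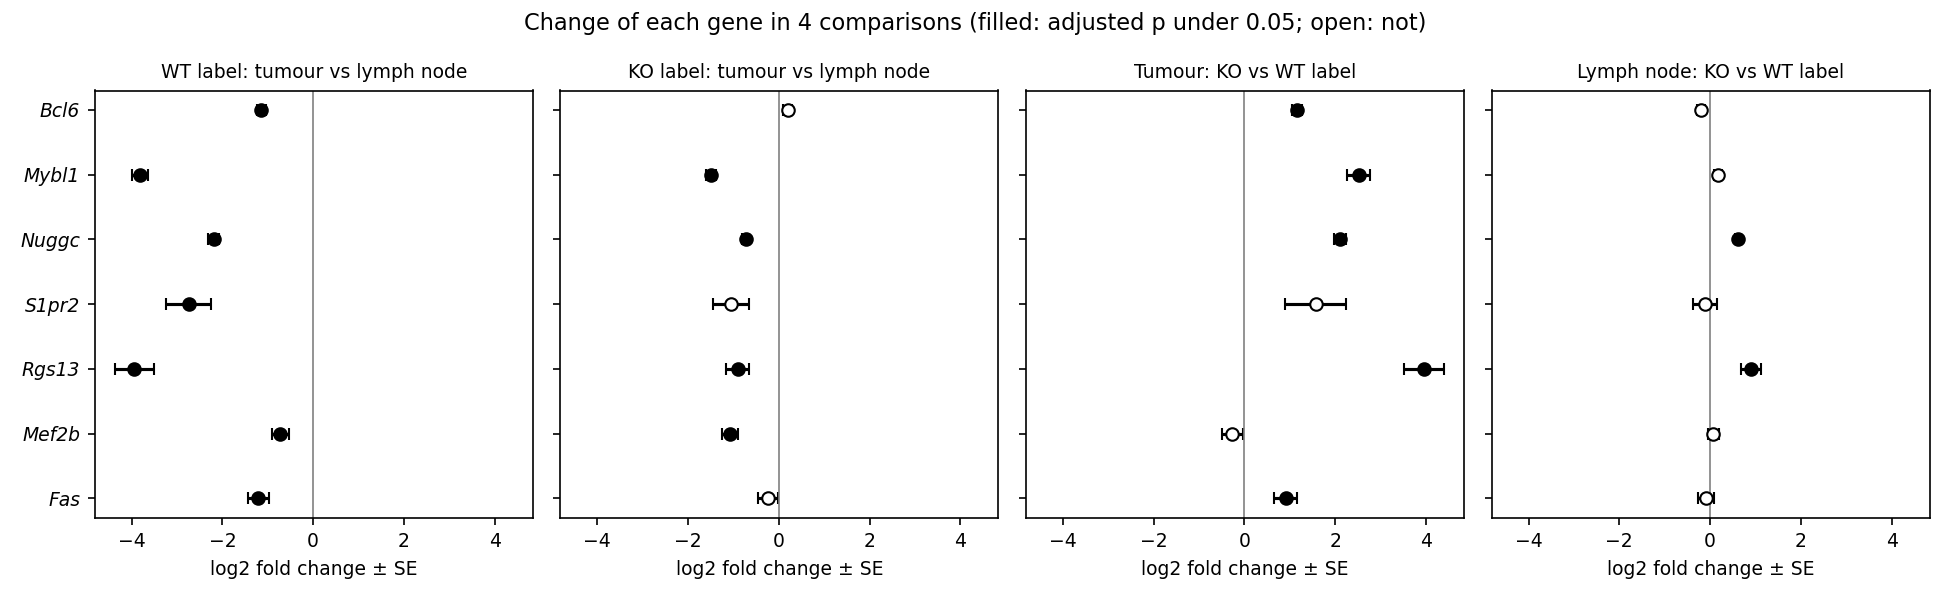
Log2 fold change with its standard error for each gene in 4 comparisons of B cells; filled points have an adjusted p under 0.05 and open points do not. All 7 points are filled and below 0 in the WT tissue comparison, 5 are filled and above 0 in the tumour comparison of labels, and Mef2b is open there at -0.26.

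The order of the groups differed between members. For Bcl6 the lymph node WT, tumour KO and lymph node KO groups followed each other with overlapping ranges, at means of 59.8, 57.9 and 52.1 CPM, and a gap came before tumour WT at 25.8 CPM. For Mybl1 and Nuggc no neighbouring groups overlapped, and lymph node KO, lymph node WT, tumour KO and tumour WT stood in that order. For Rgs13 lymph node KO, lymph node WT and tumour KO overlapped in turn and tumour WT stood alone. For S1pr2 and Mef2b the gap lay between the tissues, and for Fas it lay below tumour KO. The likeness of 2 patterns was measured as the root mean square difference of log2 CPM over the 12 B cell libraries, each gene centred on its mean. Bcl6 and Fas were the nearest pair of members, at 0.241, and Mef2b and Rgs13 the farthest, at 1.56.

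Among 8580 genes with enough reads, the patterns nearest to Nuggc were those of Cdca2 at 0.207, Top2a at 0.263 and Cep55 at 0.263, all known from dividing cells. Rassf6 was nearest to both Mybl1, at 0.443, and Rgs13, at 0.458, with Clspn second for both. Mybl2, another MYB factor, was nearest to S1pr2 at 0.474. The nearest to Bcl6 were Cltc, the clathrin heavy chain, at 0.112, Rrp15 at 0.144 and Nedd9 at 0.155. For Fas it was Nedd8 at 0.192, and for Mef2b Cutc at 0.201. The points share libraries and depth, so these values are descriptions.

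Levels of RNA from other cells moved with the same comparison and stand here beside it. From tumour WT to tumour KO B cells the summed T cell markers went from 255 to 271 up to 543 to 574 CPM, with 11 of 12 called higher. The CD8 T and NK markers went from 5.08 to 6.58 up to 50.3 to 56.2 CPM, with 7 of 7 tested called higher. Some of these 7 passed the filter on low counts, at 1.12 CPM, only through tumour KO, so their calls were partly fixed by the filter. The melanoma markers went from 704 to 833 down to 38.3 to 42.5 CPM, with 8 of 8 tested called lower, and the macrophage and monocyte markers from 168 to 190 down to 43.1 to 50.7 CPM, with 9 of 10 called lower. None of the markers of these 4 lists was at 0 in either tumour group. The plasma cell markers summed to 852 to 1072 CPM in tumour WT and 567 to 660 in tumour KO, with 1 called higher and 1 lower of 7 tested. Of the 10 B cell markers 2 were called higher and 2 lower, with a median of -0.13 log2. With scaling to those markers the 5 members stayed called, at 1.18 for Bcl6, 2.52 for Mybl1, 2.12 for Nuggc, 3.96 for Rgs13 and 0.93 for Fas (adjusted p from 5.73e-07 to 0.0223). All members but Rgs13, which had no read in any tumour Treg library, are also read in tumour Tregs. In those labelled KO, Bcl6 and Fas stood at 18.8 ± 3.04 and 36.9 ± 2.70 CPM. S1pr2 stood at 3.29 ± 0.441 CPM there, against 1.68 ± 0.862 CPM in tumour B cells labelled KO. In the same Tregs Mybl1 stood at 3.14 ± 0.816, Nuggc at 4.56 ± 1.24 and Mef2b at 15.7 ± 1.28 CPM (SD, n = 3). Immediate early genes, induced quickly when cells are stimulated or handled, summed to 5835 to 6095 CPM in tumour KO and 1607 to 1777 CPM in tumour WT, and to 3060 to 3125 and 835 to 885 CPM in lymph node, with 9 of 10 and 10 of 10 called higher under the KO label. The heat shock genes summed to 48680 to 51260 CPM in tumour KO and 20090 to 21820 CPM in tumour WT, and to 20050 to 20980 and 14610 to 15260 CPM in lymph node, with 10 of 10 and 8 of 10 called higher. Of the markers of follicular dendritic cells, the stromal cells of the germinal centre, 4 were in the table, and they summed to 4.55, 29.1 and 8.92 CPM in the tumour WT libraries and to at most 3.02 CPM in tumour KO, where Cxcl13 and Madcam1 were at 0. In lymph node the T cell markers summed to 290 to 306 CPM in KO and 307 to 322 in WT B cells, with 1 called higher and 9 lower of 12. Between lymph node and tumour WT B cells the melanoma markers went from 15.7 to 20.8 up to 704 to 833 CPM and the plasma cell markers from 217 to 242 up to 852 to 1072 CPM, with 8 of 8 and 7 of 7 tested called higher. The part of these other cells and of handling in the changes of the members was not tested.

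Other genes of the germinal centre moved with the members in tumour B cells. Of 19 tested, 11 rose and 3 fell under the KO label, where 21.3% of all genes rose and 18.8% fell. Their median was 0.38 log2, where that of all genes was -0.03. Gcsam, a signalling protein that restrains the motility of germinal centre B cells, rose by 4.81 ± 0.506 (adjusted p = 4.69e-06). It went from 0.353 ± 0.324 to 11.2 ± 3.81 CPM and passed the filter on low counts only through tumour KO. Mki67, a marker of dividing cells, rose by 1.49 ± 0.0962 (adjusted p = 3.75e-08). The transcription factor gene Mef2c rose by 1.14 ± 0.0812 (adjusted p = 1.02e-07), from 865 ± 23.6 to 1907 ± 195 CPM. Against these, Pou2af1, the B cell coactivator OCA-B, fell by 1.20 ± 0.0850 (adjusted p = 9.14e-08), from 208 ± 7.08 to 90.0 ± 9.34 CPM (SD, n = 3). The same list had 2 members higher and 15 lower of 20 in tumour against lymph node WT, against 15.7% and 14.3% of all genes. Between the labels in lymph node it had 6 higher and 5 lower of 20, against 11.0% and 10.1%.

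The list for hypermutation and class switching had 3 higher and 2 lower of 10 tested between the labels in tumour, near the shares over all genes of 21.3% higher and 18.8% lower. Msh6, a mismatch repair gene, was among the higher at 1.18 ± 0.0787 (adjusted p = 4.9e-08). In tumour against lymph node WT the list had 0 higher and 7 lower of 11, where 15.7% of all genes were higher and 14.3% lower.

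Genes listed for each zone of the germinal centre were among those that rose. Of 11 dark zone genes tested in tumour B cells, 8 rose and 2 fell under the KO label, with a median of 1.30 log2. Over all genes 21.3% rose and 18.8% fell there. Top2a, which untangles DNA in dividing cells, rose by 1.74 ± 0.115 (adjusted p = 4.85e-08), and Cxcr4, the receptor that brings cells to the dark zone, fell by 0.71 ± 0.0851 (adjusted p = 1.57e-05). Most of the dark zone list are genes of cell division, found in any dividing cell. Of 14 light zone genes, 11 rose and 1 fell, against the same shares over all genes, with a median of 0.997. Nfkbia, an NF-kB inhibitor and target, rose by 2.08 ± 0.0757 (adjusted p = 1.18e-10). Egr3, a target of antigen receptor signalling, rose by 2.13 ± 0.0854 (adjusted p = 3.16e-10), and the activation marker Cd83 by 1.05 ± 0.0764 (adjusted p = 1.21e-07). They are not particular to germinal centre B cells. In tumour Tregs labelled KO and WT, Nfkbia read 794 and 390 CPM, Egr3 11.7 and 3.41, and Cd83 92.9 and 38.2. In tumour against lymph node WT, 15.7% of all genes were higher and 14.3% lower. There the dark zone list had 1 higher and 9 lower of 12 and the light zone list 4 higher and 5 lower of 14. Between the labels in lymph node, 11.0% of all genes were higher and 10.1% lower. The light zone list had 8 higher and 3 lower of 14 there, and the dark zone list 2 higher and 2 lower of 12. The zone lists share genes with the other lists, among them Mki67, Gcsam and Il21r.

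**Figure D3:**
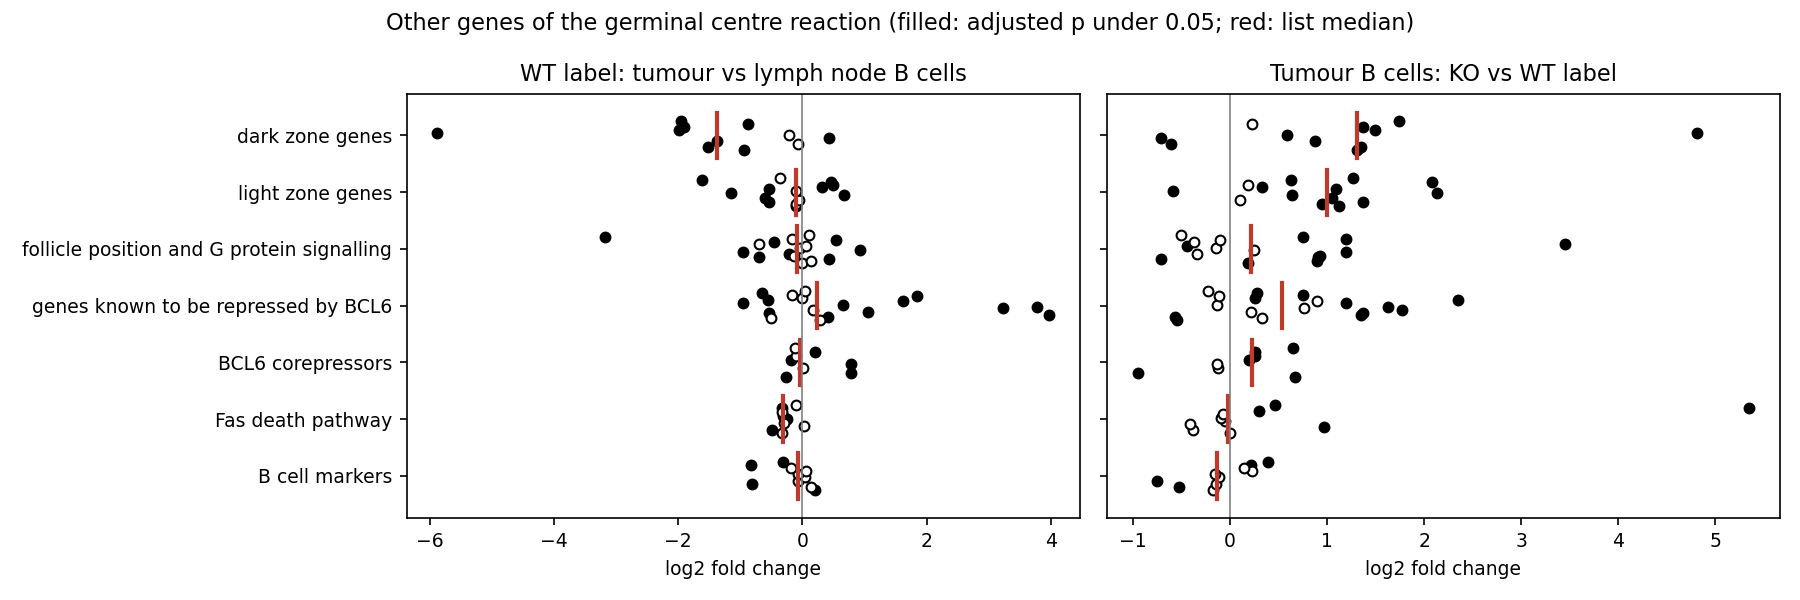
Log2 fold change of the tested genes of 7 lists in B cells, with 1 gene left out of the drawing and of its bar, tumour against lymph node under the WT label (left) and KO against WT in tumour (right); filled points have an adjusted p under 0.05 and red bars are medians of the genes drawn. The dark zone bar lies below 0 on the left and at 1.30 on the right, while the B cell marker bars lie near 0, at -0.07 and -0.13.

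Among genes that BCL6 is known to repress, mainly from work on human B cells, more rose than fell. Of 18 tested in tumour B cells, 9 rose and 2 fell under the KO label, with a median of 0.54 log2. Over all genes 21.3% rose and 18.8% fell there. Irf4, a factor of activated B cells and plasma cells, rose by 2.35 ± 0.0762 (adjusted p = 5.93e-11), from 98.8 ± 5.93 to 503 ± 28.6 CPM. Cd69, an early activation marker that many lymphocytes share, rose by 1.77 ± 0.0795 (adjusted p = 9.19e-10). Gpr183, a receptor that draws B cells out of the follicle centre, rose by 1.19 ± 0.0877 (adjusted p = 1.4e-07). In tumour Tregs labelled KO and WT, Irf4 read 166 and 30.1 CPM, Cd69 374 and 89.4, and Gpr183 67.7 and 37.9. Prdm1, the plasma cell regulator, read -0.11 ± 0.242 (adjusted p = 0.738). In lymph node 6 rose and 4 fell of 15, against 11.0% and 10.1% of all genes. Between the tissues in WT 8 rose and 4 fell of 18, against 15.7% and 14.3%. Of 8 BCL6 corepressors, 5 rose and 1 fell in tumour under the KO label, against 21.3% and 18.8% of all genes. Bcor changed by 0.67 ± 0.0813 (adjusted p = 1.78e-05) and Bcorl1 by -0.95 ± 0.197 (adjusted p = 0.00152).

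The partners of S1pr2 and Rgs13 in follicle position gave 8 higher and 2 lower of 16 in tumour B cells under the KO label. Over all genes 21.3% were higher and 18.8% lower there. Gna13 rose by 0.92 ± 0.103 log2 (adjusted p = 7.85e-06), Cxcr5, the receptor for the follicle, by 0.91 ± 0.0775 (adjusted p = 5.96e-07), and Ccr7, the receptor for the T cell zone, by 0.89 ± 0.0792 (adjusted p = 8.54e-07). Rgs2, a relative of Rgs13, rose by 1.20 ± 0.123 (adjusted p = 3.86e-06) in tumour and by 1.38 ± 0.0765 (adjusted p = 2.49e-14) in lymph node. In lymph node 5 rose and 2 fell of 16, where 11.0% of all genes rose and 10.1% fell. In the MYB and MEF2 families 4 of 5 rose in tumour and 0 fell, against 21.3% and 18.8% of all genes. Mybl2 rose by 1.07 ± 0.269 (adjusted p = 0.00595) and Mef2d by 0.56 ± 0.0693 (adjusted p = 1.99e-05), unlike Mef2b, which was not called.

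In the death pathway below Fas, 4 of 10 genes rose in tumour and 0 fell, where 21.3% of all genes rose and 18.8% fell, and the list's median was -0.02 log2 against -0.03 over all genes. The kinase gene Ripk1 rose by 0.47 ± 0.0838 log2 (adjusted p = 0.000508). Fasl, the ligand of Fas, rose from 2 reads over the tumour WT group to 95 over tumour KO (adjusted p = 0.000112). It passed the filter on low counts only through tumour KO. The ratio in CPM was 46.0, with an exact 95% counting interval of 12.4 to 386. That interval takes each read as independent and is too narrow if both mates were counted. Fasl is known from activated T and NK cells, whose markers rose in the same libraries, and it read 24.99 ± 1.63 CPM in tumour Tregs labelled KO (SD, n = 3). Fadd and Casp8, which Fas engages directly, read -0.07 ± 0.235 (adjusted p = 0.828) and -0.05 ± 0.0809 (adjusted p = 0.639). In tumour against lymph node WT, 0 of 9 rose and 4 fell, where 15.7% of all genes rose and 14.3% fell. Between the labels in lymph node 1 rose and 0 fell of 9, near the shares over all genes of 11.0% and 10.1%.

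In Tregs Bcl6 ranged below its level in B cells for each tissue and label, with the test made in the libraries labelled WT. In libraries labelled WT it read 21.6, 21.0 and 17.9 CPM in lymph node and 11.4, 8.50 and 11.9 CPM in tumour. In libraries labelled KO it read 25.5, 23.9 and 20.4 CPM in lymph node and 15.7, 18.9 and 21.7 CPM in tumour. Tumour WT Tregs were the lowest of all 8 groups and overlapped none, and the other 3 Treg groups overlapped in turn. Against B cells labelled WT, Tregs were lower by -1.53 ± 0.0942 log2 in lymph node (adjusted p = 2.79e-14), where 30.5% of all genes were called lower, and by -1.32 ± 0.155 in tumour (adjusted p = 2.54e-06), where 31.3% were.

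The tumour Tregs labelled KO had more Bcl6 than those labelled WT, by 0.83 ± 0.160 log2 (adjusted p = 3.08e-05). In that comparison 27.3% of all genes were called higher and 27.2% lower. In lymph node Tregs, where 13.8% were called higher and 11.5% lower, Bcl6 read 0.20 ± 0.111 (adjusted p = 0.213). From lymph node to tumour it fell by 0.93 ± 0.145 log2 in Tregs labelled WT (adjusted p = 2.85e-06; 19.9% of all genes called lower) and by 0.31 ± 0.123 in those labelled KO (adjusted p = 0.0296; 27.9% called lower). The KO value was not called in DESeq2, at -0.31 (adjusted p = 0.0654), or without lymph node KO replicate 1 or 2 or tumour KO replicate 1, at -0.25, -0.29 and -0.19. The interaction was 0.62 ± 0.195 (adjusted p = 0.0106), in a test that called 16.8% of all genes higher, and without tumour WT replicate 2 it was 0.49 (adjusted p = 0.0588). B cell markers in these Tregs summed to 296 to 319 CPM in lymph node KO, 135 to 151 in lymph node WT, 104 to 118 in tumour KO and 114 to 123 CPM in tumour WT, and the CD8 T and NK markers to 255 to 268 CPM in tumour KO against 48.7 to 55.5 in tumour WT. Their part in the Bcl6 levels was not tested.

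**Figure D4:**
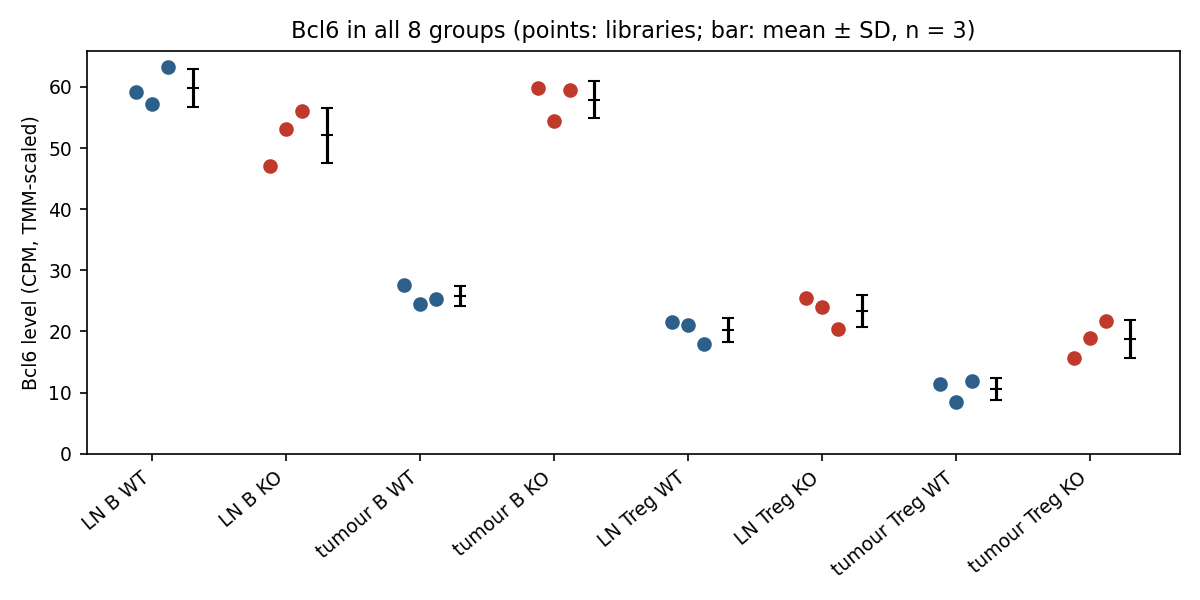
Bcl6 level (CPM, TMM-scaled, axis from 0) in all 24 libraries; points are libraries, bars are the mean and SD of 3, and blue and red are the labels WT and KO. The tumour WT group is the lowest of the 4 groups within each cell type, at 25.8 CPM in B cells and 10.6 CPM in Tregs.

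The genes known from follicular Tregs and follicular helper T cells moved in both directions in Tregs. In tumour Tregs 6 of 17 rose and 8 fell under the KO label, with a median of -0.14 log2. Over all genes 27.3% rose and 27.2% fell there. The list shares Prdm1 and Batf with the genes that BCL6 is known to repress, so its counts and median do not measure a single programme. From tumour WT to tumour KO Tregs, Prdm1 went from 58.3 ± 2.69 to 45.1 ± 1.86 CPM. Batf went from 150 ± 9.63 to 198 ± 13.5 CPM (SD). Cxcr5, which brings T cells to the follicle, rose by 2.65 ± 0.294 (adjusted p = 8.22e-10), Tcf7, a factor that acts upstream of Bcl6 in helper T cells, by 1.76 ± 0.0685 (adjusted p = 8.88e-23), and Bhlhe40 by 1.39 ± 0.0422 (adjusted p = 3.59e-26). Among those that fell were Pdcd1, which codes for PD-1, by 0.71 ± 0.0550 (adjusted p = 7.57e-14), and Maf by 0.86 ± 0.0475 (adjusted p = 3.94e-18). In lymph node Tregs 2 rose and 9 fell of 17, where 13.8% of all genes rose and 11.5% fell. Cxcr5 read 0.50 ± 0.109 (adjusted p = 0.000891) and Pdcd1 -0.92 ± 0.0809 (adjusted p = 3.33e-10).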

How the data were processed

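B cells and Tregs had been sorted and their RNA went into stranded mRNA libraries, per the labels. A single table of raw counts per gene, not normalized, with exon lengths, was deposited. Per the submitters' processing notes, fastp 0.23.4, STAR 2.5.3a and featureCounts were used, with builds GRCh38 and GRCm39 named. Coordinates are those of the deposited table, on mouse GRCm39. The strand setting is not given in the sources used here. Of the counts from 1 to 10, 69.7 to 75.8% were even, as when both mates are counted. Reads would then not be independent. An interval or floor that takes each read as independent would understate the counting error, and it leaves out the spread between libraries. All sample columns were matched by name.

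Tests used edgeR 4.0.16 (R 4.3.3, TMM, filterByExpr, quasi-likelihood F test), pairwise on the libraries compared and, for interactions, on the 12 of a cell type. The fits were checked on simulated data. DESeq2 1.42.0, other scalings, no filter, left-out libraries and a replicate block were alternatives. Members, gene lists, marker lists and alternatives were chosen with earlier results of these data known. List genes named are among the 5 with the smallest p, with exceptions. Prdm1, Fadd, Casp8 and, in Tregs, Cxcr5 and Batf were named after values were seen. For likeness, the genes compared with a member had a mean of at least 5 CPM and members a mean of at least 1 CPM; symbols starting Gm or ending Rik were left out. Some listed genes are not reported here.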

Additional observations from a re-analysis of the deposited data

Results flagged for a closer look

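Chief among the results to look at again are differences of the KO against WT change between tumour and lymph node, each tested as an interaction in edgeR. In B cells this difference was 1.35 log2 for Bcl6, 2.34 for Mybl1, 1.48 for Nuggc, 3.06 for Rgs13 and 0.99 for Fas, higher in tumour in each case. For Bcl6 in Tregs it was 0.62. The values for Fas and for Bcl6 in Tregs lost their call when single libraries were left out, as given in the report.

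Other members had reads in Tregs labelled KO above those labelled WT, in data that the comparisons of B cells do not use. Nuggc averaged 11.4 ± 0.260 CPM in lymph node Tregs labelled KO against 2.27 ± 0.479 labelled WT, and 4.56 ± 1.24 against 0.373 ± 0.329 CPM in tumour Tregs. Mybl1 averaged 8.42 ± 1.64 against 4.95 ± 0.781 CPM and Rgs13 1.99 ± 0.374 against 0.0527 ± 0.0913 CPM in lymph node Tregs (SD, n = 3). The B cell markers in those lymph node Tregs summed to 296 to 319 CPM in KO and 135 to 151 CPM in WT. In tumour Tregs they summed to 104.0 to 118.5 CPM in KO and 114.4 to 122.9 CPM in WT. The part of B cell RNA in these values was not tested.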

How the results depend on the processing

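Of the values for the comparisons and counts, 297 kept their direction and side of the threshold or stayed within 1.5 times under the alternatives, and 5 lost a call, all for Bcl6 in Tregs. Bcl6 between tumour and lymph node Tregs labelled KO was -0.31 with DESeq2 and ran from -0.43 to -0.19 as single libraries were left out. The Treg interaction of Bcl6 ran from 0.49 to 0.74 as single libraries were left out. For single members, 452 values kept their call, 12 lost one, 6 gained one and 5 reversed, none of the 5 called before or after. The reversals were in lymph node B cells, with Fas from -0.238 to 0.0741 as single libraries were left out, S1pr2 from -0.335 to 0.0567 and Mef2b from -0.0403 to 0.155, and in the KO tissue comparison, with Fas at 0.0458 under scaling to the summed B cell markers. That scaling was chosen after seeing the data. S1pr2 in the KO tissue comparison was called with no filter on low counts, at -1.06 (adjusted p = 0.03). The causes were not tested. With the replicate number as a block, the fit called 5, 2, 7, 4 and 5 members in the 5 B cell comparisons. Without the block the counts were the same. Correlations of same-numbered deviations ran from -0.054 to 0.053 in the pairwise comparisons of B cells. Over all pairwise comparisons, Tregs included, the lowest was -0.124. The numbers were therefore not taken to pair the libraries. Leaving out tumour replicate 1 labelled KO and replicate 2 labelled WT, 4 members were called in tumour. Depth limits S1pr2 and Rgs13 most, with 2 to 8 and 2 to 4 counts per tumour WT library.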

Other observations

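Fas was read more in Tregs than in B cells, at 37.3 ± 4.02 CPM in lymph node and 24.7 ± 1.79 CPM in tumour Tregs labelled WT, and at 36.1 ± 5.15 and 36.9 ± 2.70 CPM in those labelled KO (SD, n = 3). Under the KO label it was higher in tumour Tregs by 0.58 ± 0.106 log2 (adjusted p = 1.3e-05 in edgeR), and in lymph node Tregs it read -0.06 ± 0.0965 (adjusted p = 0.718). The interaction was 0.63 ± 0.146 (adjusted p = 0.000674). Mybl1 in Tregs went the other way, with an interaction of -1.46 ± 0.339 (adjusted p = 0.000706) and means of 3.14 ± 0.816 CPM in tumour KO and 5.11 ± 1.17 CPM in tumour WT. Over all 24 libraries and 8970 genes, the patterns nearest to Bcl6 were those of Eml4 at 0.284, Sp140 at 0.302 and Mtmr4 at 0.314, as root mean square differences of centred log2 CPM.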
